A study of Homo sapiens with 46 samples.

Results

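Of the 46 RNA-seq libraries of the series, 7 are described here. They come from a DLD-1 line whose own Lamin B2 carries an auxin-inducible degron (LB2-AID), 4 after 16 h of auxin and 3 after 96 h, and they were chosen by their labels alone. DLD-1 is an established human colorectal adenocarcinoma line that grows attached to the dish. The degron was put into the endogenous gene, where it tags the N terminus of Lamin B2. Auxin, a plant hormone, was taken from a DMSO stock and used at 1 mM, so both groups of 7 carry the tag and received the same agent, and they differ in how long it was present. The 4 LB2-AID libraries at 0 h are used for the level before auxin. The labels do not say whether those wells received DMSO. Untagged parental cells (WT) and the lines LA/C-AID and LB1-AID, each with 4 libraries at 16 h and 4 at 96 h, serve for the differences between lines. The parental cells were treated so that genes responding to auxin itself could be listed. A replicate was a single well of a culture plate, so p-values measure the spread between wells, and the labels do not say whether a line is 1 clone. Wells collected at 16 h and at 96 h also differ in their time in culture, and in bulk RNA a change in the share of cells in a state and a change in RNA per cell cannot be told apart.

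Lamins are intermediate filament proteins that form a meshwork under the inner nuclear membrane. Lamin B1 and Lamin B2 are the B-type lamins, which stay anchored to the membrane by a lipid tail, and Lamin A/C is the A-type lamin. The meshwork bears on nuclear shape and stiffness and on the position of chromatin at the nuclear edge, and it is tied to the actin cytoskeleton through the LINC complex of nesprins and SUN proteins. In an auxin-inducible degron line, auxin leads the tagged protein to the proteasome. It acts on protein, and the amount of Lamin B2 protein was not analysed here. Auxin-type indoles can also act on the aryl hydrocarbon receptor, a ligand-activated transcription factor.

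The 7 libraries differed in depth. At 16 h the 4 replicates held 29496614, 17888416, 479446 and 19314604 counts, and at 96 h the 3 replicates held 8649769, 13586531 and 17989328. Replicate 3 at 16 h stands apart: 63.4% of the 21484 genes tested had a count in it, against 98.2% to 99.6% in the other 6, and 3 counts in it are worth 6.26 CPM. Its median correlation with the other libraries of its group, across genes, was 0.845, and the other 6 lay between 0.965 and 0.987. Replicates differed by more than counting noise (at least 6.49 chi-square units per degree of freedom over the 9 pairs), so none was a repeat deposit of another. Levels are CPM, counts relative to the TMM-scaled total of the library, a scale that compares a gene between libraries and not genes with each other, and replicate 3 was kept at 16 h unless stated. The exceptions are the marker values and the worth of 3 counts, which are CPM of the unscaled total.

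Marker genes went with the label of an epithelial line, and in part with that of a colorectal one. KRT8 and KRT18 were highest, at 3570 to 5540 and 1370 to 1950 CPM, and CDX2 and KRT20 ran from 120 to 173 and 64 to 113. VIL1 and CEACAM5 did not exceed 3.12 and 1.89 CPM, nor did LGALS4 exceed 1.4 apart from 12.5 in the shallow replicate 3. The 10 epithelial markers summed to between 6920 and 9320 CPM at 16 h and between 7180 and 8880 at 96 h, and 0 of 10 were called between the times in the edgeR fit reported or by DESeq2 (2 had an unadjusted p under 0.05 in edgeR). Limma voom with sample weights called 2 higher and 1 lower, edgeR without libraries under 5000000 counts 1 higher and 1 lower, and edgeR with the trend in GC content and length removed 1 lower. Fibroblast markers summed to 0 to 3.05 CPM at 16 h and 2.95 to 5.32 at 96 h, with COL1A2, DCN, LUM, PDGFRA and POSTN at 0 in all 7 libraries. Blood and immune markers summed to at most 5.59 CPM, endothelial markers to at most 25 CPM and neuronal markers to at most 24.5 CPM in any of the 7. Few of these markers passed the filter on low counts (3, 2, 5 and 4 of 10 in the fibroblast, blood, endothelial and neuronal lists), and 0 of them were called in the edgeR fit reported or by DESeq2, with 1, 1, 1 and 0 at an unadjusted p under 0.05. Limma voom called 1 fibroblast marker higher, 1 blood marker lower and 1 endothelial marker each way, and edgeR 1 endothelial marker lower with the trend removed or without shallow libraries.

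Messenger RNA of the tagged lamin did not pass the test between the times. LMNB2 (chromosome 19, 2427638 to 2456959, minus strand, GRCh38) stood at 201, 142, 87 and 159 CPM in replicates 1 to 4 at 16 h and at 142, 198 and 177 CPM at 96 h. The groups overlap, and the fitted log2 fold change was 0.17 ± 0.22 (standard error; edgeR adjusted p = 0.76). LMNB1 gave 0.06 ± 0.16 (edgeR adjusted p = 0.9). LMNA, which encodes Lamin A/C, ran from 475 to 824 CPM at 16 h and from 339 to 475 CPM at 96 h, a log2 fold change of -0.5 ± 0.28 (edgeR adjusted p = 0.37). With the trend in GC content and length removed it was called, at -0.52 (edgeR adjusted p = 0.0146). In the edgeR fit reported, 2.50% of all genes were called. Of 8 genes for lamins and their processing, 0 were called in that fit or by DESeq2 (2 at an unadjusted p under 0.05 in edgeR). Limma voom called 2 lower, and edgeR 1 lower with that trend removed or without libraries under 5000000 counts. These values do not bear on the protein that the degron removes. Of the 18 genes for inner nuclear membrane and LINC partners of lamins, 1 was called, where 2.50% of all genes were. In a list of 18, 1 call is near that share. The gene called is SYNE2, which encodes nesprin-2, with 25.1, 29.5, 41.3 and 33.8 CPM at 16 h and 49.2, 49.1 and 51.7 CPM at 96 h. Its log2 fold change was 0.72 ± 0.19 (edgeR adjusted p = 0.0253). Its call was lost when 16 h replicate 1 or 2 or any 96 h replicate was left out (edgeR adjusted p up to 0.135), and 2 genes of the list were called without 16 h replicate 3 or 4.

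Between 16 h and 96 h, 537 of 21484 genes were called at an adjusted p under 0.05 in edgeR's quasi-likelihood test, 2.50% of those tested. Of these, 225 were higher at 96 h (1.05%) and 312 lower (1.45%). Large changes were mostly increases: of the 188 called genes that changed at least 2-fold (0.875% of those tested), 151 were higher (0.703%) and 37 lower (0.172%). Protein-coding genes were 63.9% of those tested, 142 of the 225 risers (63.1%) and 301 of the 312 fallers (96.5%). The 22 antisense and 14 lincRNA genes that rose were 9.78% and 6.22% of the risers, near their 9.42% and 5.8% of the genes tested, and 1 antisense gene fell. The split between directions rests on the scaling. Genes higher at 96 h were 41.9% of the calls with TMM, 62.8% with RLE scaling and 84% with library size alone, under which the median log2 fold change of all genes was 0.016, 0.098 and 0.167. The total depended on single libraries too: without 16 h replicate 1 or 2 it was 294 or 158, and without 96 h replicate 1, 2 or 3 it was 210, 169 or 180. Without 16 h replicate 3 it was 559. Without the 6 libraries of the series that held under 5000000 counts, 2026 genes were called, 536 of them among the 537. Across 8547 genes the log2 fold change had a rank correlation of 0.22 with GC content and 0.25 with length, given as a description, and its part in the calls was not tested beyond a fit with that trend removed, which called 1335 genes, 507 of them among the 537. Whether counting used strand is not stated, so reads of a gene and of one overlapping it cannot be told apart. Of the genes named below this touches KRT81 (KRT86), CADM1 (CADM1-AS1), CCN2 (LINC01013), NANOS1 (EIF3A), CCDC3 (OPTN), CYP1B1 (RMDN2), TPM1 (TPM1-AS), ITGB8 (ITGB8-AS1), CYP19A1 (MIR4713HG), LATS2 (LATS2-AS1) and SYNE2 (ESR2), and others where they are given.

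**Figure D1:**
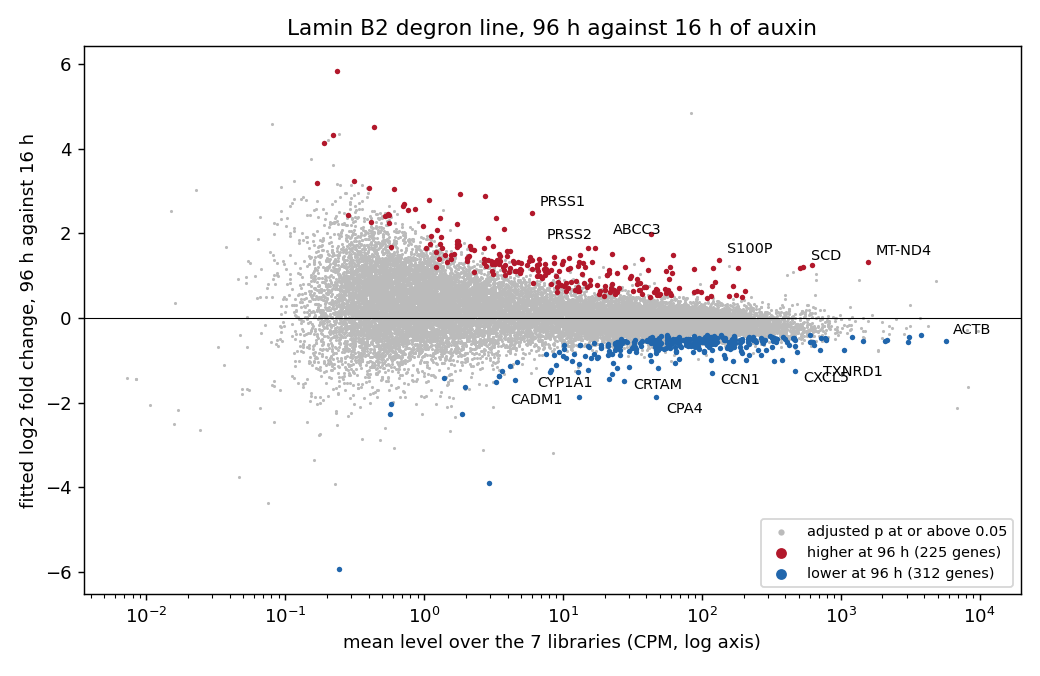
Each point is 1 of the genes tested; the horizontal axis is its mean level over the 7 libraries (CPM, log axis) and the vertical axis its fitted log2 fold change between 16 h and 96 h of auxin. The 225 genes called higher (red) include many at low levels, and the 312 called lower (blue) form a band at moderate and high levels.

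ABCC3, a transporter that exports organic anions and bile acids, had 20.9, 21.8, 23.9 and 22.2 CPM at 16 h and 56.4, 58.4 and 57 CPM at 96 h. All 3 late libraries lay far above all 4 early ones, and the fold was 2.63 (log2 1.4 ± 0.15, edgeR adjusted p = 1.22e-08). S100P, a calcium-binding protein, rose from 49.1, 72.3, 133 and 85.2 CPM to 199, 200 and 198 CPM, 2.58-fold (edgeR adjusted p = 2.22e-06). Its early libraries were spread over a range that the late ones did not show. The trypsinogen gene PRSS2 had 13.4, 12.7, 19.6 and 8.7 CPM at 16 h and 28.1, 35.2 and 39.9 CPM at 96 h, 2.87-fold higher (edgeR adjusted p = 2.83e-06). Its neighbour PRSS1 went from 2.09, 2.86, 0 and 1.63 CPM to 10.8, 9.71 and 14.9 CPM, a fitted log2 change of 2.48 ± 0.34. The 0 is the shallow replicate 3, where no count is no evidence of absence. PRSS1 and PRSS2 are near copies, and how reads common to both were counted is not stated, so the division between them is uncertain. These 4 genes kept their call under all 17 alternatives run.

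KRT81, a hair-type keratin, had 7.16, 7.44, 15.2 and 6.46 CPM at 16 h and 22.2, 25.4 and 22.4 CPM at 96 h (3.16-fold, edgeR adjusted p = 0.00757), under all alternatives, and it had stood at 29.7 ± 13.5 CPM (SD, n = 4) at 0 h. HLA-B, a class I antigen-presenting molecule of a family with near-identical members, went from 10.3, 10.2, 10.9 and 5.7 CPM to 18.5, 36.7 and 27.8 CPM (log2 1.65 ± 0.34, edgeR adjusted p = 0.00415). Its call was lost without 96 h replicate 2 (edgeR adjusted p = 0.0596). CYP19A1, the aromatase that makes oestrogens, had 3.65, 4.76, 4.35 and 6.97 CPM and then 16.8, 12.5 and 12 CPM (log2 1.43 ± 0.33, edgeR adjusted p = 0.0108). It was not called without 16 h replicate 1 or 2 or 96 h replicate 1 (edgeR adjusted p up to 0.0782). For all 3 genes the early and late libraries did not overlap, which was a condition for naming them. It was met by 3426 of the genes tested (15.9%). The same condition was set for ABCC3, S100P, PRSS1, PRSS2, TFF1, DHRS3 and MT-ATP8. Among genes that fell it was set for CADM1, CPA4, CRTAM, CYP1A1, NANOS1, CCN1, CALD1, CXCL5, CCN2 and CCDC3.

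Among the decreases, CADM1, an immunoglobulin-family adhesion molecule, had 19.2, 15.9, 30.5 and 12.2 CPM at 16 h and 5.45, 3.62 and 4.68 CPM at 96 h. It fell 3.67-fold (log2 -1.87 ± 0.23, edgeR adjusted p = 8.64e-07) to a level near the 4.12 CPM mean of the 0 h libraries, which ranged from 2.22 to 7.05. CRTAM encodes a surface protein that binds CADM1. Its level was 39.7, 42.8, 41.3 and 30.7 CPM at 16 h and 10.8, 13.5 and 15.8 CPM at 96 h, 2.83-fold lower (edgeR adjusted p = 6.3e-09), and lower than the 24.1 to 26.6 CPM of the 0 h libraries. CPA4, a secreted carboxypeptidase, went from 74.1, 67.9, 95.7 and 36.2 CPM to 14.2, 19.1 and 19.1 CPM (3.64-fold lower, edgeR adjusted p = 2.54e-06). Replicate 4 was the lowest of the early libraries for all 3 genes and still above every late one. ITGB8, an integrin subunit that activates TGF-beta, fell from 37.4, 30, 28.3 and 23.4 CPM to 12.7, 17.4 and 12.8 CPM (2.11-fold, edgeR adjusted p = 0.00015). At 0 h it had ranged from 10.4 to 22.2 CPM.

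CXCL5, a neutrophil-attracting chemokine, was among the more abundant of the genes that fell. It had 637, 623, 707 and 518 CPM at 16 h and 245, 269 and 259 CPM at 96 h, and the groups lay well apart. The fall was 2.4-fold (log2 -1.26 ± 0.15, edgeR adjusted p = 7.14e-07), and the 0 h libraries, at 327 to 363 CPM, lay between. IL18, a cytokine that epithelial cells store as a precursor, went from 109, 140, 111 and 140 CPM to 82.6, 71 and 65.3 CPM (1.74-fold lower, edgeR adjusted p = 0.000956). These were the 2 called of 20 epithelial cytokine and chemokine genes tested, where 1.45% of all genes were called lower. The median of the list was -0.14 on the log2 scale (0.01 with library size alone). CXCL8, the best known member, stayed between 0 and 9.05 CPM at 16 h and between 4.47 and 6.07 CPM at 96 h (edgeR adjusted p = 0.835). NANOS1, an RNA-binding translational repressor, and CCDC3, a secreted protein, fell 2.49-fold and 2.27-fold (edgeR adjusted p = 5.42e-05 and 4.36e-06). Their early and late libraries were apart, a condition for naming them. CADM1, CRTAM, CPA4, ITGB8, CXCL5, IL18, NANOS1 and CCDC3 were called under all 17 alternatives.

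**Figure D2:**
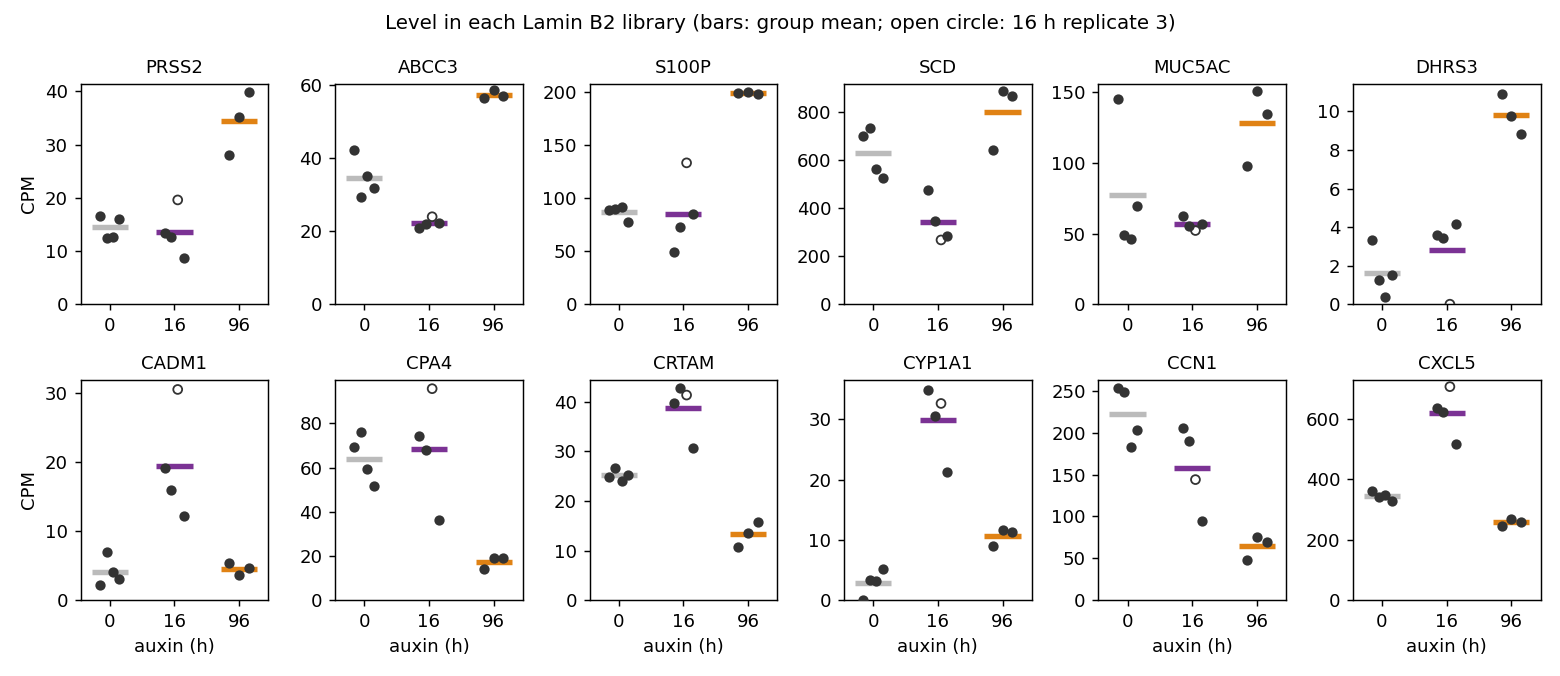
Each panel shows 1 gene; the vertical axis is its level in CPM, starting at 0, the horizontal axis the hours of auxin, each point 1 LB2-AID library and each bar the mean of a group, with the shallow 16 h replicate 3 as an open circle. ABCC3 at 96 h sits between 56.4 and 58.4 CPM, above all libraries at 16 h, and CXCL5 at 96 h sits between 245 and 269 CPM, below them.

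Targets of YAP, the transcriptional co-activator that responds to cell spreading and tension and acts through TEAD factors, were examined as a list of 22 genes, 21 of them tested. Of these, 0 rose and 5 fell, where 1.45% of all genes were called lower, and the median log2 fold change was -0.31 against 0.02 over all genes. Here and below that share is over all gene types. Protein-coding genes were 63.9% of those tested and 96.5% of the fallers, so it understates the background for a list of coding genes. The matricellular proteins CCN1 and CCN2 are the classic readouts of YAP. CCN1 had 205, 190, 144 and 94.1 CPM at 16 h and 47.7, 74.9 and 69.9 CPM at 96 h, a fall of 2.48-fold (log2 -1.31 ± 0.18, edgeR adjusted p = 6.78e-06). CCN2 had 30.3, 22.9, 10.9 and 14.2 CPM and then 6.7, 10.8 and 9.94 CPM, 2.35-fold lower (log2 -1.23 ± 0.19, edgeR adjusted p = 4.65e-05). In both genes replicates 3 and 4 were the lowest of the early libraries, and for CCN2 the shallow replicate 3 lay just above the highest late one. ANKRD1, a nuclear and sarcomeric cofactor, went from 11.5, 16.6, 21.8 and 11.2 CPM to 7.23, 7.09 and 5.85 CPM (2.02-fold lower, edgeR adjusted p = 0.00433). LATS2, the kinase that restrains YAP, went from 108, 96.8, 76.1 and 82.9 CPM to 59.1, 66.1 and 63.7 CPM (1.48-fold lower, edgeR adjusted p = 0.00932). The fifth, AJUBA, an adaptor that binds LATS kinases, was -0.83 ± 0.22 and is named to complete the count. CCN1 and CCN2 passed all 17 alternatives. ANKRD1 was lost without 16 h replicate 2 or 96 h replicate 3 (edgeR adjusted p up to 0.0577), and LATS2 without 16 h replicate 1 or 96 h replicate 1 (edgeR adjusted p up to 0.0751). The list kept 3 calls without 16 h replicate 1, 96 h replicate 1 or 96 h replicate 3. Matricellular THBS1 ran from 439 to 897 CPM and then from 329 to 514 CPM, with overlapping groups (edgeR adjusted p = 0.0933).

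Promoters of CCN2 and ANKRD1 are shown because both genes fell and both are known to be bound by TEAD factors. The core searched was GGAATG on either strand (CATTCC on the other), in the 250 bases before the RefSeq gene start on GRCh38.p14. It was present in 11.9% of 35116 promoters of that length. CCN2 held 3 matches, at 169, 104 and 95 bases before the start, and ANKRD1 held 2, at 220 and 128 bases. Matches are in capitals and are a description of letters, not of binding.
CCN2, chr6:131951373-131951622, minus strand: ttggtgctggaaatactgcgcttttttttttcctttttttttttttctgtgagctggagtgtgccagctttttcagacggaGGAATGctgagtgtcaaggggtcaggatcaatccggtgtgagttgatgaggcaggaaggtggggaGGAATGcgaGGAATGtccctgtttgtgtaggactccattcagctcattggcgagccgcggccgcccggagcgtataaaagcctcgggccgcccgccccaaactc
ANKRD1, chr10:90921088-90921337, minus strand: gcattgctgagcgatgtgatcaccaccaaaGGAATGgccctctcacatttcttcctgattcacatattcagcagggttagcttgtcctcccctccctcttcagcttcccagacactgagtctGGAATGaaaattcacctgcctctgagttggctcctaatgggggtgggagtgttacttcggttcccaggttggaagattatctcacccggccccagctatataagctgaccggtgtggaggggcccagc

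In the actin cytoskeleton and its serum response factor (SRF) program, the called genes were lower as well. Of 22 tested, 0 rose and 4 fell, where 1.45% of all genes were called lower, and the list median was -0.22. In parental cells the median was -0.2, with 1 called lower, where 0.107% of all genes were. In LA/C-AID 10 were called lower (median -0.42) and in LB1-AID 12 (median -0.46), where 3.22% and 10.9% of all genes were. The cytoplasmic actins are among the most abundant mRNAs of the cell. ACTB had 7550, 7670, 5350 and 5870 CPM at 16 h and 4200, 4880 and 4460 CPM at 96 h, 1.47-fold lower (edgeR adjusted p = 0.0217). ACTG1 had 3790, 3680, 3490 and 3090 CPM and then 2480, 2730 and 2440 CPM, 1.38-fold lower (edgeR adjusted p = 0.0192). Neither gene's groups overlapped. CALD1, caldesmon, which regulates actomyosin, fell 2.44-fold, from 11.9, 9.7, 15.2 and 7.58 CPM to 4.4, 4.04 and 3.88 CPM (edgeR adjusted p = 0.000556), and it passed every alternative. TPM1, a tropomyosin that covers actin filaments, was 1.45-fold lower (edgeR adjusted p = 0.0223). ACTB, ACTG1 and TPM1 were each lost with library size alone as scaling, which left 1 call in the list, and without 16 h replicate 1 or 2 or 96 h replicate 1 or 3 (edgeR adjusted p up to 0.14). ACTB and TPM1 were also lost without 96 h replicate 2, and TPM1 without 16 h replicate 3. The list then held 1 call without 16 h replicate 1 or 2 or 96 h replicate 1 or 3, and 2 without 96 h replicate 2. Of the caveola coat genes, which cooperate with actin at the membrane, 1 of 6 tested fell. It was CAV1, with 71.9, 63.4, 28.3 and 44 CPM at 16 h and 32.1, 28.7 and 30.2 CPM at 96 h (edgeR adjusted p = 0.0158); the shallow replicate 3 overlaps the late libraries, and the call was lost without 16 h replicate 1 or 2 or any 96 h replicate (edgeR adjusted p up to 0.103).

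The aryl hydrocarbon receptor, when bound by a ligand, moves to the nucleus and switches on xenobiotic enzymes such as CYP1A1 and CYP1B1. CYP1A1 (chromosome 15, 74719542 to 74725536, minus strand, GRCh38) averaged 2.89 CPM at 0 h, had 34.8, 30.5, 32.6 and 21.3 CPM at 16 h, and had 9.01, 11.6 and 11.3 CPM at 96 h. The 3 time points did not overlap, and the late level lay between the other two. From 16 h to 96 h it fell 2.74-fold (log2 -1.45 ± 0.22, edgeR adjusted p = 4.43e-05), under all 17 alternatives. CYP1B1 averaged 35.8 CPM at 0 h and had 104, 92.2, 39.2 and 71.8 CPM at 16 h and 61, 56.6 and 58.1 CPM at 96 h. Its shallow replicate 3 lay below the late libraries, and its call was marginal (log2 -0.49 ± 0.14, edgeR adjusted p = 0.0489). It was lost without 16 h replicate 1 or 2 or any 96 h replicate (edgeR adjusted p up to 0.26), as it was with RLE scaling. Of the 13 pathway genes tested, these 2 fell and 0 rose, where 1.45% of all genes were called lower. The receptor gene AHR ran from 198 to 246 CPM and then from 142 to 211 CPM (edgeR adjusted p = 0.317). TIPARP, a feedback target of the receptor, was at -0.41 ± 0.19 and AHRR, its repressor, at 0.21 ± 0.3, neither called.

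The CYP1A1 promoter is shown because this gene changed most of the pathway. The receptor's core GCGTG was searched on both strands in the same 250-base window and was present in 32.2% of the 35116 promoters. CYP1A1 held 1 match, in capitals, at 57 bases before the start. Each promoter was searched for 1 core, so no motifs overlap.
CYP1A1, chr15:74725529-74725778, minus strand: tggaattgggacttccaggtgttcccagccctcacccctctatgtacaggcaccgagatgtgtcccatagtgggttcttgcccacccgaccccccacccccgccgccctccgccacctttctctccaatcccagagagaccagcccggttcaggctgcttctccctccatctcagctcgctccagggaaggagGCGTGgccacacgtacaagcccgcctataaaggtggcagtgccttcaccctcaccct

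Several stress and biosynthesis genes fell. ATF4 is the transcription factor of the integrated stress response and drives amino acid synthesis and uptake. Of 30 genes of this program tested, 0 rose and 6 fell, where 1.45% of all genes were called lower, with a median of -0.3. PSPH, the last enzyme of serine synthesis, had 168, 174, 200 and 206 CPM at 16 h and 94.5, 99.6 and 95.6 CPM at 96 h, and the late libraries lay close together below all early ones (1.93-fold lower, edgeR adjusted p = 3.22e-06). ATF3, a stress-induced factor also counted as an immediate early gene, went from 29.9, 29.4, 39.2 and 28 CPM to 15.6, 19.3 and 18 CPM (1.7-fold lower, edgeR adjusted p = 0.00227). MTHFD2, a mitochondrial folate enzyme, was 1.49-fold lower (edgeR adjusted p = 0.00337). ATF4 itself went from 367, 394, 446 and 362 CPM to 281, 280 and 272 CPM (1.4-fold lower, edgeR adjusted p = 0.0122). The last 2 were SLC7A11, the cystine importer, at -0.59, and the serine synthesis enzyme PSAT1 at -0.52. PSPH and ATF3 passed all 17 alternatives and MTHFD2 all that left out 1 library, whereas ATF4 was lost without any 1 of the 96 h replicates (edgeR adjusted p up to 0.065). The list kept 3 calls without any 1 of the 96 h replicates and 4 without 16 h replicate 1 or 2. The known targets DDIT3, at 0.07 ± 0.24, and ASNS, at -0.19 ± 0.23, were not called.

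NRF2 controls glutathione and thioredoxin genes. Of 20 of its targets tested, 0 rose and 3 fell, where 1.45% of all genes were called lower. The 3 were TXNRD1, SLC7A11 and GCLM. TXNRD1, thioredoxin reductase, had 938, 856, 911 and 723 CPM at 16 h and 472, 531 and 502 CPM at 96 h (1.71-fold lower, edgeR adjusted p = 2.48e-05), under every alternative. SLC7A11 and GCLM, a subunit of the glutathione-making ligase, were 1.51-fold and 1.49-fold lower (edgeR adjusted p = 0.0233 and 0.0252), and both were lost without 16 h replicate 1 or 2 or any 96 h replicate (edgeR adjusted p up to 0.147). NQO1, the usual reporter gene of NRF2, ran from 419 to 465 CPM and then from 421 to 466 CPM (log2 0.01 ± 0.14, not called). In glycolysis, the neuronal-type glucose transporter SLC2A3 fell from 123, 94.1, 56.6 and 55.1 CPM to 34.8, 47.2 and 40.8 CPM (2.1-fold, edgeR adjusted p = 0.000334). Pyruvate kinase PKM went from 3560, 3740, 3820 and 3000 CPM to 2100, 2490 and 2510 CPM (1.49-fold lower, edgeR adjusted p = 0.00685), and was lost without 96 h replicate 1 (edgeR adjusted p = 0.0961). TPI1 was 1.38-fold lower (edgeR adjusted p = 0.017) and was lost without 16 h replicate 2 or 96 h replicate 1 or 3 (edgeR adjusted p up to 0.14), and 1 call was left in the list without 96 h replicate 1. These were the 3 called of 35 hypoxia and glycolysis genes, whose median was 0.03, where 2.50% of all genes were called.

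Among mitotic genes, which peak as cells divide, those called fell by small amounts. Of 38 tested, 0 rose and 6 fell, where 1.45% of all genes were called lower, and 32 had a negative fitted change, with a median of -0.24. CDC20, the activator of the anaphase-promoting complex, had 347, 347, 296 and 268 CPM at 16 h and 195, 233 and 224 CPM at 96 h (1.45-fold lower, edgeR adjusted p = 0.00735). Cyclin A2 (CCNA2) went from 259, 290, 294 and 272 CPM to 200, 184 and 198 CPM, cyclin B1 (CCNB1) from 289, 350, 348 and 331 CPM to 241, 219 and 229 CPM, and the centrosome kinase NEK2 from 70.9, 84.8, 63.1 and 82.1 CPM to 51.8, 52.1 and 52.5 CPM. For these 4 genes the groups were apart, and the folds lay between 1.43 and 1.48. The others called were the kinase AURKA and the centromeric histone CENPA, at -0.5 and -0.6 on the log2 scale. These calls rested on few libraries: without 16 h replicate 2 or 96 h replicate 1 none of the 38 was called, without 96 h replicate 2 or 3 it was 1, and with library size alone as scaling 1 rose and 1 fell. The proliferation marker MKI67 ran the other way, from 411, 360, 278 and 317 CPM to 407, 463 and 546 CPM, and was not called (edgeR adjusted p = 0.0982). None of 43 DNA replication genes was called in edgeR's test as reported (8 had an unadjusted p under 0.05, DESeq2 called 1 lower, limma voom 2 higher and 10 lower, and edgeR 3 lower with the GC and length trend removed and 1 lower without shallow libraries), and their median was -0.11 (0.04 with library size alone). The p53 targets, which arrest or kill damaged cells, had 2 of 22 called, both lower, where 1.45% of all genes were called lower. MDM2, the ubiquitin ligase that removes p53, fell from 231, 222, 170 and 246 CPM to 152, 159 and 153 CPM (1.43-fold, edgeR adjusted p = 0.0119). The other was CCNG1 (1.62-fold, edgeR adjusted p = 0.0333). MDM2 was lost without 96 h replicate 1 or 3 and CCNG1 without any library but 16 h replicate 3 (edgeR adjusted p up to 0.176). CDKN1A, the arrest gene of that list, was not called (log2 0.09 ± 0.2).

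Messenger RNAs of the mitochondrial genome, which encode core subunits of the respiratory chain, made up 0.521%, 0.69%, 0.753% and 1.19% of the counts in the 4 libraries at 16 h and 1.63%, 1.64% and 1.86% at 96 h. All 13 had a positive fitted change under TMM, RLE and library-size scaling, with a median of 1.09, and 5 were called higher, where 1.05% of all genes were. MT-ND4, a subunit of complex I, had 441, 750, 1180 and 1480 CPM at 16 h and 2070, 2430 and 2700 CPM at 96 h (2.5-fold, edgeR adjusted p = 0.0141). MT-ND5 had 154, 277, 650 and 533 CPM and then 847, 905 and 1030 CPM (2.36-fold, edgeR adjusted p = 0.0245). Replicates 1 and 2 were the lowest of the early libraries in both, and replicate 4 or 3 the highest. For 11 of the 13 all late libraries lay above all early ones, as was so for 2070 of the 21484 genes tested. MT-ATP8 (2.78-fold) and MT-ND4L (2.25-fold) overlap MT-ATP6 and MT-ND4 on the genome, so their counts are uncertain, and MT-ND1 at 1.18 completes the calls. The number called moved with the early libraries: it was 0 without 16 h replicate 1 or 2, 0 without 96 h replicate 2 or 3, 2 without 96 h replicate 1, and 9 without 16 h replicate 3 or 4. At 0 h MT-ND4 ranged from 1030 to 2400 CPM, so the late level was not above that before auxin beyond the spread (96 h against 0 h, edgeR adjusted p = 0.349). In the parental line the change between the same times was also upward, with 12 of 13 called (where 0.158% of all genes were called higher) and a median of 1.54. In LB1-AID cells 13 of 13 were called higher with a median of 1.95, and in LA/C-AID cells 0 of 13 were called by edgeR, with a median of 0.34. Over all genes 9.53% were called higher in LB1-AID and 2.05% in LA/C-AID.

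**Figure D3:**
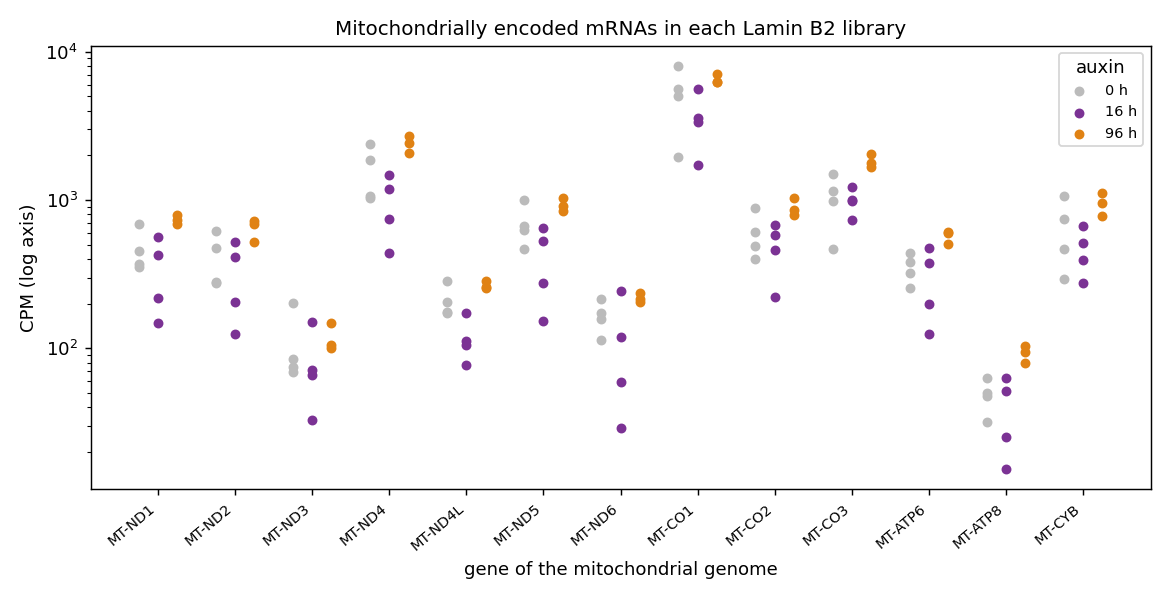
The vertical axis is the level in CPM (log axis) and the horizontal axis the 13 protein-coding genes of the mitochondrial genome; each point is 1 LB2-AID library at 0 h (grey), 16 h (purple) or 96 h (orange) of auxin. For MT-ND4 the 3 late libraries lie between 2070 and 2700 CPM and the 4 early ones between 441 and 1480 CPM, and the 0 h libraries span both.

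For respiratory chain subunits encoded in the nucleus the calls in the edgeR fit reported were decreases. Of 41 tested, 0 rose and 3 fell, where 1.45% of all genes were called lower, and the median was -0.27. With library size alone 1 rose and 0 fell, and with RLE scaling or DESeq2 1 rose and 2 fell. With the GC and length trend removed 0 rose and 4 fell, and without shallow libraries 0 rose and 10 fell. The ATP synthase subunits ATP5PB and ATP5F1B were 1.52-fold and 1.43-fold lower, and the complex III subunit UQCRB 1.4-fold lower (edgeR adjusted p = 0.0112, 0.02 and 0.0313). ATP5PB went from 252, 346, 307 and 376 CPM to 236, 197 and 202 CPM, and its lowest early library lay just above its highest late one. ATP5PB, ATP5F1B and UQCRB passed 10, 9 and 3 of 17 alternatives. All 3 were lost without 16 h replicate 2 or 96 h replicate 2 or 3, and 0 genes of the list were called without 16 h replicate 2 or 96 h replicate 2. Cytosolic ribosomal proteins had 1 of 47 called, RPLP0, lower by 1.44-fold (edgeR adjusted p = 0.0133), though 39 of 47 had a negative fitted change and the median was -0.23. RPLP0 was lost without 16 h replicate 3 or any 96 h replicate (edgeR adjusted p up to 0.075), and 4 genes of the list were called without 16 h replicate 1. Replication-dependent histones had 1 of 41 called, H4C3, with 106, 184, 424 and 156 CPM at 16 h and 118, 94.7 and 85 CPM at 96 h (edgeR adjusted p = 0.0199). The shallow replicate 3 is the high one, the groups overlap, and without it H4C3 was not called (edgeR adjusted p = 0.123). It was lost as well without 96 h replicate 2 or 3, and without 16 h replicate 1 a further histone gene was called, making 2.

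Secretory and lipid genes were among those that rose. Goblet cells of the gut make mucins and trefoil peptides, which build the mucus layer. Of 19 listed genes 12 passed the filter on low counts. Of these 3 rose and 0 fell, where 1.05% of all genes were called higher, and the median of those tested was 0.72. MUC5AC, a gel-forming mucin, had 62.8, 55.5, 52.2 and 57.1 CPM at 16 h and 98.1, 151 and 135 CPM at 96 h (2.22-fold, edgeR adjusted p = 0.00673). The trefoil factor TFF1 had 4.03, 4.05, 0 and 5.29 CPM and then 13.9, 10 and 10.3 CPM (2.63-fold, edgeR adjusted p = 0.00605), and TFF3 had 4.14, 6.72, 8.7 and 7.02 CPM and then 13, 12.5 and 10.6 CPM (1.99-fold, edgeR adjusted p = 0.0105). Early and late libraries were apart in all 3. TFF1 passed every alternative, MUC5AC was lost without 96 h replicate 2 (edgeR adjusted p = 0.0653), and TFF3 without 16 h replicate 1 or 96 h replicate 2 (edgeR adjusted p up to 0.0985); 1 call remained without 96 h replicate 2. At 0 h MUC5AC ranged from 46.4 to 145 CPM. SCD, the desaturase that makes monounsaturated fatty acids, had 475, 349, 268 and 284 CPM at 16 h and 644, 889 and 868 CPM at 96 h (2.3-fold, edgeR adjusted p = 2.54e-06), under every alternative. Its 0 h libraries, at 525 to 734 CPM, lay above all early ones. ACACA, the carboxylase that starts fatty acid synthesis, was 1.41-fold higher (edgeR adjusted p = 0.0474) with overlapping groups, and was lost without 16 h replicates 2, 3 or 4 or 96 h replicates 2 or 3 (edgeR adjusted p up to 0.191). These were 2 of 13 fatty acid genes tested, and 0 of 28 cholesterol genes were called by edgeR or DESeq2 (1 at an unadjusted p under 0.05 in edgeR; 2 higher and 3 lower by limma voom). DHRS3, which reduces retinal to retinol and is itself induced by retinoids, was the 1 of 17 retinoid genes called, with 3.58, 3.45, 0 and 4.17 CPM at 16 h and 10.9, 9.78 and 8.82 CPM at 96 h (2.7-fold, edgeR adjusted p = 0.0171). It had averaged 1.61 CPM at 0 h, and it was not called without 16 h replicate 1 or 2 or 96 h replicate 1 or 2 (edgeR adjusted p up to 0.0814).

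Noncoding transcripts that stay in the nucleus rose in part. Of 10 abundant nuclear long noncoding RNAs tested 3 rose and 0 fell, with a median of 0.43, where 1.05% of all genes were called higher. KCNQ1OT1, the imprinted antisense transcript of KCNQ1, had 32.9, 38, 23.9 and 50.7 CPM at 16 h and 104, 80.3 and 86.1 CPM at 96 h (2.31-fold, edgeR adjusted p = 0.00047), under every alternative, and reads of KCNQ1 introns on the other strand could be counted with it. MALAT1, a nuclear speckle RNA, had 8.95, 14.8, 32.6 and 23.8 CPM and then 40, 40.9 and 35.4 CPM (2.31-fold, edgeR adjusted p = 0.0412), and was lost without 16 h replicate 1 or 2 or any 96 h replicate (edgeR adjusted p up to 0.217). PVT1 was 1.89-fold higher (edgeR adjusted p = 0.0108) and was lost without 16 h replicate 1 or 2 or 96 h replicate 1 (edgeR adjusted p up to 0.0785). NEAT1, which builds paraspeckles, was at 0.55 ± 0.18 and not called (edgeR adjusted p = 0.0858). The list had 1 call without 16 h replicate 1 or 2 or 96 h replicate 1. Outside the lists, among called noncoding genes with a symbol, a mean of at least 5 CPM and no overlap between the times, those that rose most were the mitochondrial transfer RNA MT-TC, which overlaps MT-TY (3.97-fold, edgeR adjusted p = 0.000486), PLAC4, which lies antisense to BACE2 (2.79-fold, edgeR adjusted p = 0.000109), and LINC00342 (2.55-fold, edgeR adjusted p = 0.008), the last lost without 16 h replicate 1 or 2 (edgeR adjusted p up to 0.055). By the same conditions those that fell most were RNVU1-22, a variant U1 small nuclear RNA with many near copies, and the pseudogenes RPS2P5 and RPLP0P6, whose reads cannot be told from those of their parent genes. RNVU1-22 had 14.4, 13.3, 21.8 and 19.9 CPM at 16 h and 11.5, 4.25 and 4.89 CPM at 96 h (2.43-fold lower, edgeR adjusted p = 0.00242), and was lost without 96 h replicate 2 or 3 (edgeR adjusted p up to 0.0575). RPS2P5 was lost without 16 h replicate 1 or 2 or any 96 h replicate (edgeR adjusted p up to 0.118), and RPLP0P6 in every such fit but the one without 16 h replicate 1.

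The interferon-stimulated and clock lists had 2 calls each, 7.14% and 11.8% of their tested genes, where 2.50% of all genes were called. Of 28 interferon-stimulated genes tested, OAS2, a sensor of double-stranded RNA, fell from 4.06, 6.13, 6.53 and 5.34 CPM to 2.72, 2.34 and 2.13 CPM (2.19-fold, edgeR adjusted p = 0.00605). RSAD2, an antiviral enzyme, was called higher at very low levels, with 0.112, 0.298, 2.18 and 0.203 CPM at 16 h and 2.62, 0.992 and 1.22 CPM at 96 h (edgeR adjusted p = 0.0135). The 2.18 is a single count in the shallow library. OAS2 was lost without 16 h replicate 2 or 96 h replicate 3 and RSAD2 without 16 h replicate 1 or 96 h replicate 1 (edgeR adjusted p up to 0.0952). ISG15 ran from 48 to 131 CPM and then from 42.2 to 58.4 CPM and was not called. Of 17 clock genes, the repressor BHLHE40 rose from 34.1, 25.9, 13.1 and 29.4 CPM to 48, 54.9 and 48.2 CPM (1.76-fold, edgeR adjusted p = 0.00833) and the repressor NR1D2 fell 1.53-fold (edgeR adjusted p = 0.0239). BHLHE40 was lost without 16 h replicate 2 or 96 h replicate 2 (edgeR adjusted p up to 0.0655), and NR1D2, whose groups overlap, without 16 h replicate 1 or 2 or any 96 h replicate (edgeR adjusted p up to 0.131).

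Junction and matrix genes were mixed. Over all genes 2.50% were called. Of 32 keratin and junction genes, CTNNB1 (beta-catenin), the desmosomal plakophilin PKP2 and the tight junction claudin CLDN1 fell and the adherens junction nectin NECTIN4 rose, at log2 values of -0.47, -0.47, -0.64 and 0.74. Each of these was lost without 16 h replicate 1 or 2 or 96 h replicate 2 or 3 (edgeR adjusted p up to 0.363), NECTIN4 also without 16 h replicate 4 and the other 3 without 96 h replicate 1. So 0 of 32 were called without 16 h replicate 1 or 2 or 96 h replicate 2 or 3, and 1 without 96 h replicate 1. Beside ITGB8, the matrix list of 28 had LAMA3, a laminin chain of the epithelial basement membrane, higher (1.52-fold, edgeR adjusted p = 0.0199), and TNC, tenascin, lower (2.33-fold, edgeR adjusted p = 0.0217). LAMA3 was lost without 16 h replicate 2 or 4 or 96 h replicate 2 or 3, and TNC, whose groups overlap, without 16 h replicate 1 or 2 or any 96 h replicate (edgeR adjusted p up to 0.182). Of 17 MAP kinase feedback genes 1 was called, the phosphatase DUSP1 (1.54-fold lower, edgeR adjusted p = 0.0323). Of 23 immediate early genes 2 were called, ATF3, given above, and the factor KLF6 (1.33-fold lower, edgeR adjusted p = 0.04). Of 17 enterocyte genes tested 1 was called, the factor HNF4A (1.39-fold lower, edgeR adjusted p = 0.0199). DUSP1, KLF6 and HNF4A were each lost without 16 h replicate 1 or 2 or any 96 h replicate (edgeR adjusted p up to 0.161). Of 19 WNT feedback genes 0 were called in the edgeR fit reported (3 at an unadjusted p under 0.05; 1 lower by DESeq2; 4 higher and 3 lower by limma voom), and other edgeR fits called 1: higher with library size alone, lower with the trend removed, with the replicate block or without shallow libraries, and 1 without 16 h replicate 4. Of 24 small nucleolar RNA host genes 0 were called in the edgeR fit reported or by DESeq2 (2 at an unadjusted p under 0.05 in edgeR). Limma voom called 1 higher and 1 lower, and edgeR without shallow libraries 1 lower.

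**Figure D4:**
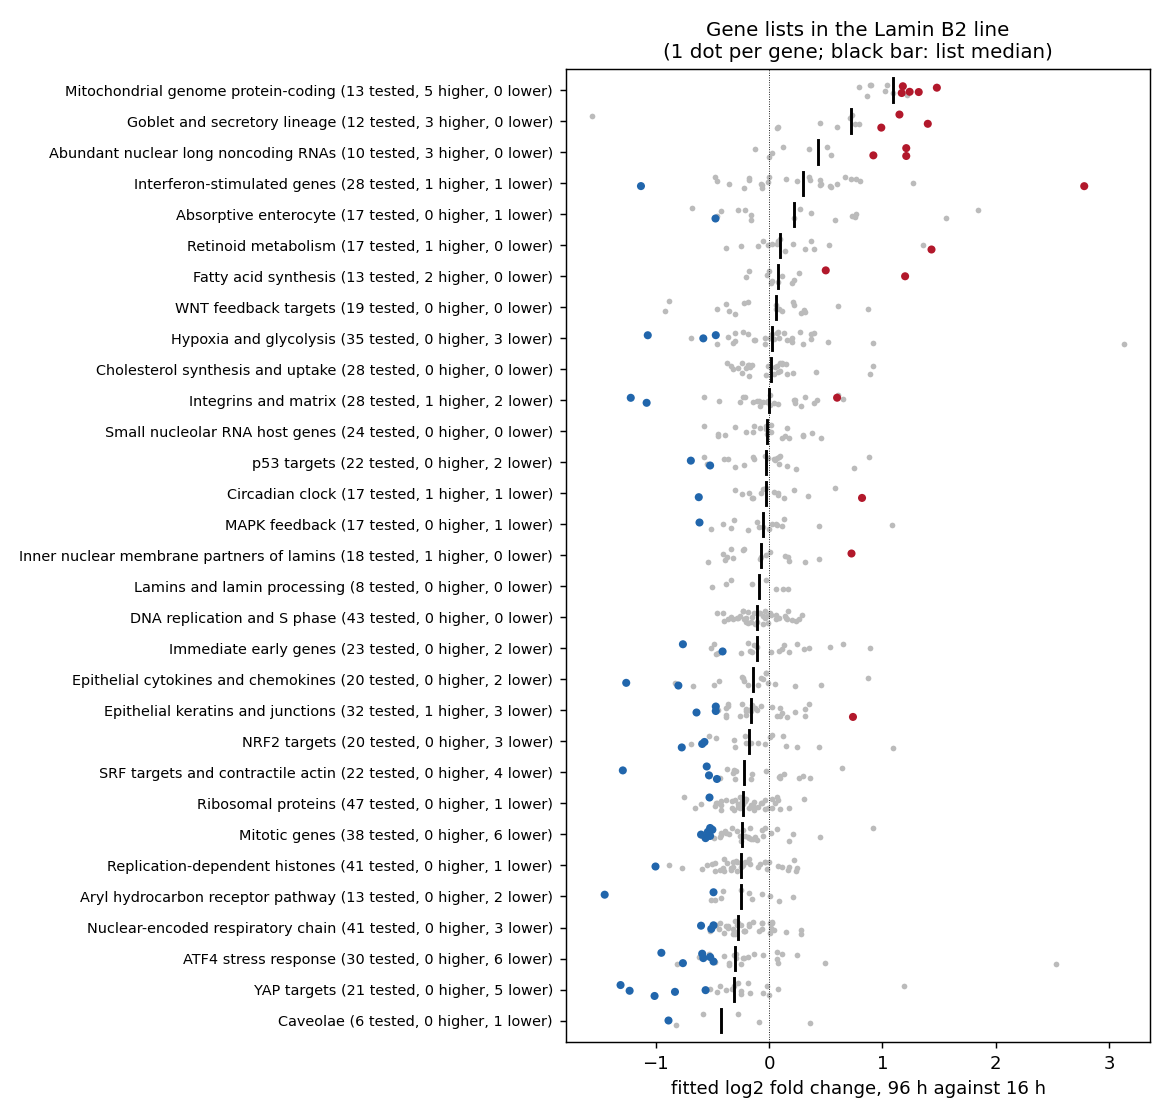
The horizontal axis is the fitted log2 fold change between 16 h and 96 h of auxin in the LB2-AID line; each dot is 1 tested gene of the list named at the left, red where called higher, blue where called lower and grey otherwise, and the black bar is the median of the list. The mitochondrial genome list lies wholly above 0 with a median of 1.09, and the YAP targets have a median of -0.31 with 5 blue dots.

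Whether the change between the times belongs to the LB2-AID line was asked by testing its difference from the same change in the other lines. Against the parental line, 7 of 21484 genes (0.0326%) differed at an edgeR adjusted p under 0.05, all with a lower change in LB2-AID, and 1350 had an unadjusted p under 0.05. They are CCN1, CCN2, CXCL5, FOS, ATF3, TMEM107 and CLDN1. In parental cells CCN1 averaged 92.5 ± 6.35 CPM (SD, n = 4) after 16 h and 101 ± 6.78 CPM (SD, n = 4) after 96 h, a log2 change of 0.13, against -1.31 in LB2-AID. The difference was -1.44 (edgeR adjusted p = 0.00333), and it was called under all 25 alternatives run for it. CCN2 averaged 22.2 ± 1.65 and 26.7 ± 2.6 CPM in parental cells (log2 0.27), and its difference was -1.5 (edgeR adjusted p = 0.00333). It was lost in 1 of 25 alternatives, the fit to the compared groups alone (edgeR adjusted p = 0.0658). For CXCL5 the parental means were 184 ± 8.54 and 161 ± 18.7 CPM, and the difference was -1.07 (edgeR adjusted p = 0.0204). FOS, an immediate early gene, was not called in LB2-AID (29.6 ± 11.1 CPM, n = 4, and 30.5 ± 6.89 CPM, n = 3). In parental cells it went from 35.4 ± 1.48 to 81 ± 4.13 CPM (n = 4 each; log2 1.19, edgeR adjusted p = 2.75e-05), and the difference was -1.3 (edgeR adjusted p = 0.0204). ATF3, TMEM107 and CLDN1 differed by -1.02, -1.32 and -1.23 (edgeR adjusted p = 0.0301, 0.0301 and 0.0349). TMEM107, a ciliary protein, shares its strand and position with the small nucleolar RNA SNORD118, so the source of its reads is uncertain.

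These differences varied in how far they rested on single libraries and on the processing. CXCL5 passed 14 of 25 alternatives. Leaving out parental 16 h replicate 2 or 3 or parental 96 h replicate 2 lost its call. So did leaving out LB2 16 h replicate 3 or any LB2 96 h replicate (edgeR adjusted p up to 0.0818). The CXCL5 call was lost as well with library size alone as scaling or with the replicate block. Correcting for GC content and length lost it too, without the block (edgeR adjusted p = 0.104) or with it. FOS passed 18 of 25 alternatives. It was lost with library size alone and without parental 16 h replicate 2 or 3. The same held without LB2 16 h replicate 1 or 4 or LB2 96 h replicate 2 or 3 (edgeR adjusted p up to 0.17). ATF3, CLDN1 and TMEM107 passed 8, 8 and 10 of 25 alternatives, and each was lost in at least 10 of the 15 fits that left out 1 library (edgeR adjusted p up to 0.206). Against the LA/C-AID line 1 gene differed (0.00465%; 989 unadjusted p under 0.05): AHNAK, a giant scaffold protein of the cell cortex, at 1.3 (edgeR adjusted p = 0.0387), which passed 13 of 25 alternatives and was lost without any of 10 libraries (edgeR adjusted p up to 0.319). Against the LB1-AID line 31 differed (0.144%), 13 with a higher (0.0605%) and 18 with a lower (0.0838%) change in LB2-AID. Across 8547 genes the difference had a rank correlation with GC content of 0.23 against parental cells, 0.44 against LA/C-AID and 0.5 against LB1-AID. With the trend in GC content and length removed these were 0.05, 0.05 and 0.1, and 16, 2 and 143 genes differed.

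**Figure D5:**
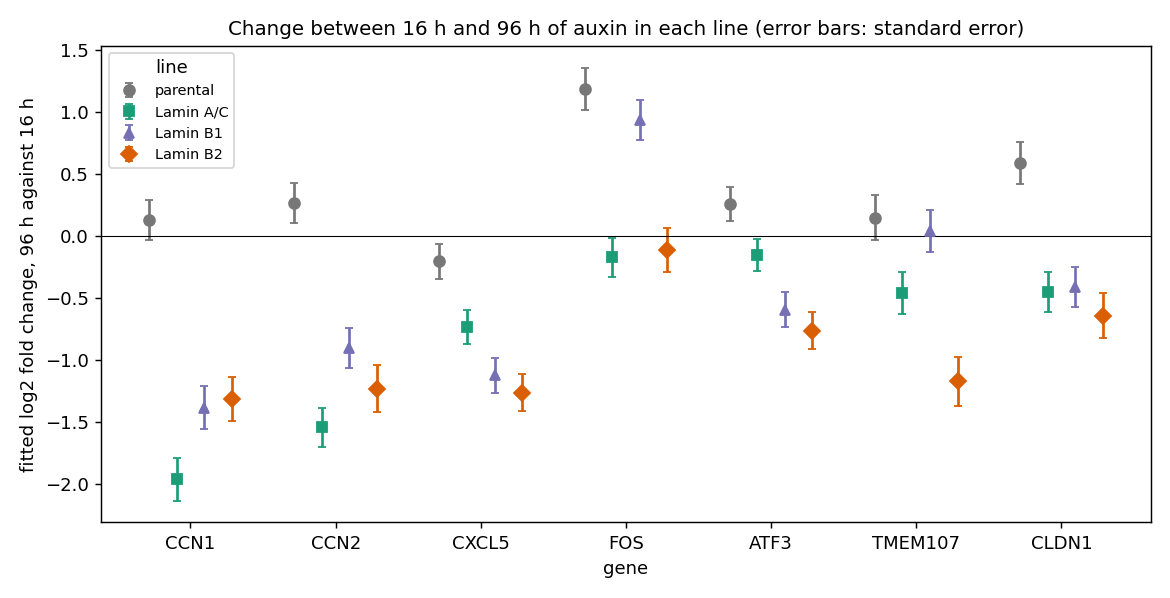
The vertical axis is the fitted log2 fold change between 16 h and 96 h of auxin, with its standard error as the bar, for the 7 genes along the horizontal axis whose change differed between LB2-AID and parental cells; the 4 symbols are the 4 lines. CCN1 and CCN2 lie at -1.31 and -1.23 in the Lamin B2 line, below 0 in the Lamin A/C and Lamin B1 lines, and at 0.13 and 0.27 in the parental line.

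The lines differed widely in how many genes were called between 16 h and 96 h: 57 in parental cells (0.265%), 537 in LB2-AID (2.50%), 1133 in LA/C-AID (5.27%) and 4379 in LB1-AID (20.4%). The numbers of counts and replicates differ between the lines, and these totals were not compared by a test. Across 8568 genes of moderate or high level the change in LB2-AID had a correlation of 0.44 with that in parental cells, 0.52 with LA/C-AID and 0.49 with LB1-AID. These are correlations across genes, which are not independent replicates, and no library is shared between lines. Of the 537 genes called in LB2-AID, 26 were called in the same direction in parental cells (4.84% of the 537 and 45.6% of the 57), 236 in LA/C-AID (43.9% and 20.8% of the 1133) and 376 in LB1-AID (70% and 8.59% of the 4379). Opposite calls numbered 0, 0 and 5. The 225 genes that rose in LB2-AID by a median of 1.19 had medians of 0.35 in parental cells, 0.71 in LA/C-AID and 1.02 in LB1-AID, and the 312 that fell by a median of 0.59 (log2 -0.59) had medians of -0.19, -0.4 and -0.5. Since these genes were selected for their change in LB2-AID, their median is larger there by choice.

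The same 4 lines can be read gene by gene. PRSS2 rose in all: 1.52 in LB2-AID, 1.1 in parental, 1.2 in LA/C-AID and 1.14 in LB1-AID, each called. S100P rose by 1.37, 1.58, 2.28 and 2.5 in the same order, each called. Its difference between LB2-AID and LB1-AID was called (-1.14, edgeR adjusted p = 0.0264), and that from parental cells (-0.22) or LA/C-AID (-0.92) was not. CADM1 and CRTAM were called lower in all 4 lines, at -1.87 and -1.5 in LB2-AID and at -1.2 and -0.86 in parental cells, where 0.107% of all genes were called lower. CYP1A1 was called lower in LB2-AID and LA/C-AID (-1.45 and -1.31) and not in parental or LB1-AID cells (-0.4 and -0.46), but its difference between LB2-AID and parental cells was not called. SCD was called higher in the 3 tagged lines (1.2, 1.51 and 0.59 in LB2-AID, LA/C-AID and LB1-AID) and not in parental cells (0.25). For KRT81, MUC5AC and TMEM107, LB2-AID was the line with a call, and of these the difference from parental cells was called for TMEM107. Among YAP targets, 0 of 21 were called in parental cells (median 0), 12 fell in LA/C-AID and 16 fell and 1 rose in LB1-AID, where 3.22% and 10.9% of all genes were called lower and 9.53% were called higher in LB1-AID. Immediate early genes had 4 of 23 called higher in parental cells (median 0.35), where 0.158% of all genes were called higher. In LB2-AID 0 were called higher and 2 lower (median -0.11, and 0.04 with library size alone), where 1.45% of all genes were called lower. LA/C-AID had 0 higher and 3 lower (median -0.15), and LB1-AID 6 higher and 6 lower (median 0.06). In these lines 3.22% and 10.9% of all genes were called lower, and in LB1-AID 9.53% higher.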

How the data were processed

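Unnormalized read counts per gene came from 1 table that the authors deposited, whose 46 count columns each matched a library. Per the file headers, counting was done with featureCounts 1.6.4. The submitters' processing notes also name the build GRCh38, STAR 2.7.10a, SAMtools 1.10, deepTools 3.4.5 and DESeq2 1.40.2, with no role given. Strand setting, treatment of multi-mapping reads and annotation release are not given in the sources used here. The kit, per the labels' protocols, makes stranded libraries of total RNA after removal of ribosomal RNA. Of 62756 genes used, 92.9% are in GENCODE 29 and 42302 (67.4%) matched a symbol; 1 gene whose entry is broken over 3 lines was left out.

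From the counts, genes passing filterByExpr (21484) were fitted with edgeR 4.0.16 in R 4.3.3, with TMM scaling, quasi-likelihood F tests and 1 coefficient for each of 12 groups over all 46 libraries. P-values were Benjamini-Hochberg adjusted over all genes tested, and a gene was called under 0.05. CPM are TMM-adjusted. On counts simulated for this comparison over 21484 genes, 87 of 100 genes changed 2-fold and 93 of 100 changed 4-fold were called, with 14 unchanged genes called. The changed genes had a mean of at least 1 CPM, and the simulated spread depended on level alone. No trend with GC content or length and no deviation shared across a library's genes was simulated. The rates therefore need not hold for the real libraries. Alternatives were RLE scaling, library size alone, no filter, DESeq2 1.42.0, limma 3.58.1 voom with sample weights, only the groups compared, the replicate number as a block, removal of each library's trend with GC content and length, both of these, leaving out libraries under 5000000 counts, and leaving out each library in turn. Promoter letters come from RefSeq on GRCh38.p14.

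The genes and lists were chosen with earlier results of these data known. Named were the 3 lamins; the 10 coding genes that rose and the 10 that fell most among those called, with a mean of at least 5 CPM and no overlap between the times; the 3 of other types each way; the 5 with the lowest p against the parental line; and up to 4 called members of each list. AJUBA, AURKA, CENPA, PSAT1, MT-ND1, the members given as not called, and the last 2 called against the parental line or the LA/C-AID gene were named after their values were seen.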

Additional observations from a re-analysis of the deposited data

Results flagged for a closer look

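In 4 genes 1 library at 16 h lay far from the other 3 of its group, a rule by which chance alone would pick about 1 group in 20. Replicate 3 gave 15.2 CPM for KRT81, against 6.46 to 7.44 in the others, and 39.2 CPM for ATF3, against 28 to 29.9. It held 7 and 18 counts of these genes. The same replicate gave 2.18 CPM for RSAD2 from 1 count, against 0.112 to 0.298. Replicate 4 gave 5.7 CPM for HLA-B, from 112 counts, against 10.2 to 10.9.

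The change from 16 h to 96 h differed between LB2-AID and parental cells, by the test of the difference itself (edgeR, adjusted over all genes), in 7 genes. On the log2 scale the differences were -1.44 for CCN1, -1.5 for CCN2, -1.07 for CXCL5, -1.3 for FOS, -1.02 for ATF3, -1.32 for TMEM107 and -1.23 for CLDN1. AHNAK differed between LB2-AID and LA/C-AID by 1.3.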

How the results depend on the processing

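The number of genes called between 16 h and 96 h (537) was 324 without the filter on low counts, 367 with the replicate block, 596 with RLE scaling and 592 with library size alone. It was 1335 with the trend in GC content and length removed, 1142 with that trend removed and the replicate block, 2026 without libraries under 5000000 counts, 166 in the groups compared alone, 850 by DESeq2 and 4283 by limma voom, and 158 to 559 with 1 library left out. The difference from the parental line (7 genes) gave 3 with library size alone, 31 without the filter, 3 with the replicate block, 16 with the GC trend removed, 34 without shallow libraries, 3 in the groups compared, 18 by DESeq2, 355 by limma voom and 2 to 7 with 1 library left out. The difference from LA/C-AID (1 gene) gave in the same order 2, 11, 0, 2, 3, 3, 18, 603 and 0 to 7. The difference from LB1-AID (31 genes) gave 70 without the filter, 11 with the replicate block, 143 with the GC trend removed, 51 with trend and block, 287 without shallow libraries, 18 in the groups compared, 150 by DESeq2, 748 by limma voom and 9 to 189 with 1 library left out. The cause of these shifts was not tested.

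Same-numbered libraries of the LB2-AID groups did not deviate together (correlations of -0.25, -0.25 and -0.18), so the numbers were not taken as pairs. Neither LMNB1 nor FOS was called between 16 h and 96 h, and the sign of both was unsettled: LMNB1 (0.06) gave 0 with trend and block and 0 to 0.13 with 1 library left out, and FOS (-0.11) gave 0.04 with library size alone, 0.09 with the replicate block, 0.07 with trend and block and -0.27 to 0.02 with 1 library left out. The list medians that changed sign between scalings were those printed in the report as such and those of the lists for lamins, their membrane partners, p53, cholesterol, integrins, junctions, clock, MAP kinase feedback and small nucleolar RNA hosts. Depth is least in 16 h replicate 3, where 3 counts are worth 6.26 CPM of the unscaled total, so levels under that were not measurable in it.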
